A study of Talaromyces pinophilus with 6 samples.

Results

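*TP00083*, *TP00084* and *TP00085* are 3 genes of the filamentous fungus *Talaromyces pinophilus* that follow each other by number. They were taken by these gene numbers, out of 11632 genes listed in any library, because their transcript levels differed widely between a deletion mutant, Δ*TP05746*, and the strain it was made from, Δ*TpKu70*. The strain difference is therefore a description here and carries no test. Δ*TpKu70* (genotype label TpKu70 KO) lacks *TpKu70*, a gene of DNA end joining, in strain 1-95. Δ*TP05746* (label TP05746 TpKu70 double KO) was made from it by deleting *TP05746*, which encodes a Zn2Cys6 protein, so the libraries of both strains lack *TpKu70*. Each strain has 3 libraries, made from mycelium that was grown on glucose and then kept for 12 h in medium with 1% soluble corn starch. Whether separate cultures lay behind the libraries is not given in the sources used here, so their spread, and every p-value, may be technical.

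In the study's annotation, *TP00083* carries the mark of a winged helix DNA-binding domain and *TP00085* that of the N-terminal domain of fungal transcriptional regulators, the Zn2Cys6 zinc cluster. Both are putative transcription factor genes from these marks alone. A winged helix is a compact fold that often places a helix into the major groove of DNA, and it also occurs in proteins that do not regulate transcription. A zinc cluster holds zinc ions between 6 cysteines, and fungal proteins with this domain commonly bind short paired DNA motifs upstream of genes for carbon use, nitrogen use or secondary metabolites. *TP00084* has no such mark and matched a hypothetical protein of *Colletotrichum gloeosporioides*. The best match of *TP00085* was in *Exophiala sideris* and that of *TP00083* in *Talaromyces cellulolyticus*. Of 1977 annotated genes at hand with a species name, all of them genes that the study called different between the strains, 94.0% had their best match in *Talaromyces*.

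As a check of the labels, *TP05746* was counted 135, 42 and 28 times in Δ*TpKu70* replicates 1, 2 and 3 and had no row in any of the 3 Δ*TP05746* libraries. The tables list only genes above 0, so a 0 here and below means that the gene had no row in that library. A missing row need not be a count of 0. The counts are expected counts, the fragments that RSEM assigned to a gene, which added up to between 4091718 and 4696455 per library. Levels are given as CPM, counts relative to the library size after TMM scaling, with mean ± SD and n = 3, and levels are set between genes only as FPKM, which also corrects for gene length. The 10 most abundant genes took 15.18% to 22.98% of the counts in Δ*TpKu70* and 7.48% to 8.58% in Δ*TP05746*, and TMM factors ran from 0.667 to 1.37. Across genes, Δ*TpKu70* replicate 1 stood apart from replicates 2 and 3, with which it correlated at 0.898 and 0.89 against 0.965 between those libraries. It was also more like the Δ*TP05746* libraries, at 0.712 to 0.733, against 0.591 to 0.641 for replicates 2 and 3.

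The transcripts of *TP00083*, the gene with the winged helix mark, were abundant in Δ*TpKu70* and nearly absent from Δ*TP05746*. Δ*TpKu70* replicates 1, 2 and 3 held 2717, 9311 and 21096 of its counts, and the Δ*TP05746* replicates held 14, 3 and 8. The groups did not overlap, and within Δ*TpKu70* replicate 1 was lowest and replicate 3 highest. It made up 0.0586%, 0.198% and 0.459% of all counts in the Δ*TpKu70* libraries, where it ranked 256th, 70th and 20th by FPKM. The level went from 3444 ± 3165 CPM in Δ*TpKu70* to 1.53 ± 1.05 CPM in Δ*TP05746* (SD, n = 3), a 2251-fold lower mean. The fitted log2 of the ratio of Δ*TP05746* to Δ*TpKu70* (log2FC) was −10.78, and it lay between −11.28 and −9.82 when any 1 library was left out.

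*TP00085*, the zinc cluster gene, was expressed at a lower level per length and had almost no count in the mutant. Expected counts of 161, 547 and 611 stood in Δ*TpKu70* replicates 1, 2 and 3, and 1, 0 and 0 in Δ*TP05746*. Replicate 1 was again the lowest Δ*TpKu70* library, while replicates 2 and 3 lay close together. The mean level was 134 ± 83.8 CPM in Δ*TpKu70* and 0.0622 ± 0.108 CPM in Δ*TP05746* (SD, n = 3). Over all libraries 1319 counts stood against 1, a ratio of 2087 after scaling. Its exact 95% binomial interval, from 374 to 82505, covers counting error only. The interval pools the libraries of each strain, leaves out the 5.03-fold spread within Δ*TpKu70* and takes missing mutant rows as 0. As the gene was chosen on this contrast, the interval is no test of it. Because of the single count in Δ*TP05746*, the fitted log2FC of −8.06 depends on the prior count, which was 2. It reached −10.57 with a smaller one. *TP00085* reached the level needed for the fit, an FPKM of 1 in 3 libraries, through its Δ*TpKu70* libraries alone. *TP00083* needed them too, since its FPKM in Δ*TP05746* replicates 1, 2 and 3 was 2.18, 0.47 and 1.27. Only *TP00084* also met it within Δ*TP05746*, at 9.69, 6.02 and 8.27. All 3 genes were therefore in the fit.

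*TP00084*, which lies between them by number, was the most abundant of the 3 per length. Δ*TpKu70* replicates 1, 2 and 3 held 12487.4, 38703.94 and 79287.35 of its counts, and the Δ*TP05746* replicates held 69.34, 42.64 and 58.12. It took 0.269%, 0.824% and 1.72% of all counts in the Δ*TpKu70* libraries and ranked 48th, 13th and 6th there by FPKM, against 5398, 6194 and 5728 in Δ*TP05746*. The level fell from 13499 ± 11540.1 to 10.3 ± 2.75 CPM (SD, n = 3), a 1309-fold lower mean with a log2FC of −10.29 (−10.77 to −9.44 with 1 library left out). The decimals show that RSEM shared reads between *TP00084* and at least 1 other gene model, so its level is uncertain by an amount that the files do not give. The counts of *TP00083* and *TP00085* were whole numbers in every library.

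**Figure D1:**
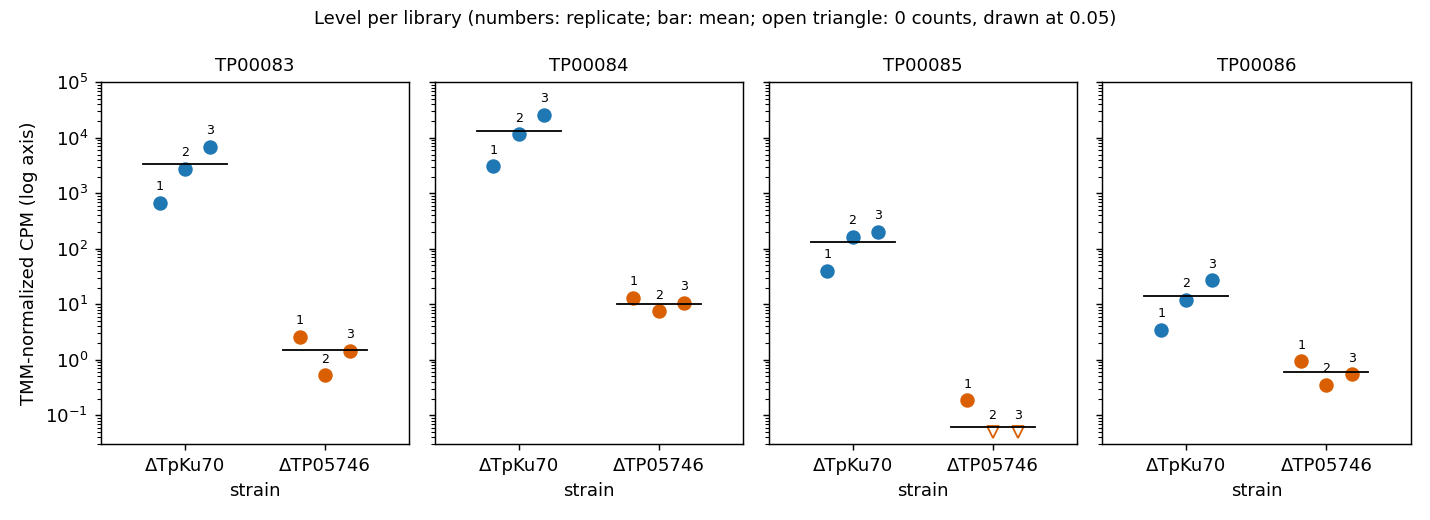
Levels of *TP00083*, *TP00084*, *TP00085* and the next gene by number, *TP00086*, as TMM-normalized CPM on a log axis, with 1 point per library (labelled by replicate number), a bar at the mean of the 3 libraries and open triangles for libraries at 0. Each gene is lowest in Δ*TpKu70* replicate 1 among the Δ*TpKu70* libraries, and no Δ*TP05746* library reaches the Δ*TpKu70* range.

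For all 3 genes every Δ*TP05746* library lay below every Δ*TpKu70* library, as did 29.9% of the 8522 genes tested. Past the threshold used here (edgeR's quasi-likelihood test, adjusted p up to 0.05, log2FC of 1 or more in either direction) were 38.4% of genes, with 20.4% lower and 18.0% higher in Δ*TP05746*. Since the 3 genes were chosen on this contrast, nothing is read from their place in it. Counting from the lowest log2FC of all genes tested, *TP00083* was 5th, *TP00084* 11th and *TP00085* 74th. Of 4363 sets of 3 consecutive gene numbers in which every gene was tested, 158 had all 3 genes past the threshold and lower. In 20 of the sets, this one included, no gene had a log2FC above the −8.06 of *TP00085*. That number, too, describes the values on which the 3 genes were chosen. The −8.06 depends on the prior count, so the 20 and the 74th place may move with it. The sets overlap, so a longer run of genes is counted more than once, and the number of separate runs is lower.

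**Figure D2:**
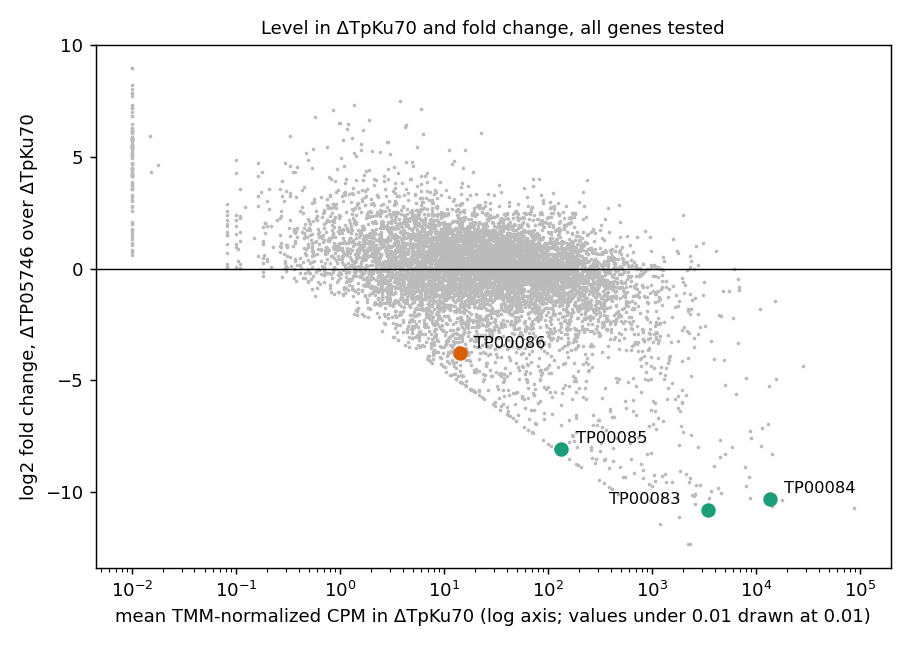
Mean level in Δ*TpKu70* (TMM-normalized CPM, log axis) against the log2FC of Δ*TP05746* over Δ*TpKu70* for the 8522 genes tested, with *TP00083*, *TP00084*, *TP00085* and *TP00086* marked. *TP00083* and *TP00084* lie at the lower right, at −10.78 and −10.29, and *TP00085* lies on the slanted lower edge formed by genes with almost no counts in Δ*TP05746*, where the prior count limits the fitted value.

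Among themselves, the 3 genes kept a similar but not a fixed proportion. Per length, *TP00084* was above *TP00083* in each Δ*TpKu70* library, with FPKM values of 1670.19, 5202.8 and 10884.47 against 406.73, 1400.21 and 3240.45. The ratio was 4.11, 3.72 and 3.36 in replicates 1, 2 and 3, with a mean of 3.73 ± 0.374 (SD, n = 3), while each gene alone changed 8.42-fold or more between these libraries in CPM. *TP00085* had FPKM values of 14.37, 49.15 and 56.03. *TP00083* was 28.3, 28.5 and 57.8 times as high per length, so *TP00085* stayed in proportion between replicates 1 and 2 and fell behind in replicate 3. From counts and FPKM together, the gene model of *TP00084* was 1.12 times and that of *TP00085* 1.68 times as long as that of *TP00083*, on the effective length that RSEM uses.

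Of the counts of *TP00083* and *TP00084* together, *TP00083* held 17.9%, 19.4% and 21.0% in Δ*TpKu70* replicates 1, 2 and 3. The exact (Clopper-Pearson) 95% intervals were 17.3 to 18.5%, 19.0 to 19.7% and 20.8 to 21.3%, and did not overlap. They cover the counting error of independent reads only. Reads of *TP00084* were shared with another gene model and reads carried no molecular identifiers, which the intervals do not cover. In Δ*TP05746* the share was 16.9% of 83 counts (9.54 to 26.7%), 6.52% of 46 (1.37 to 17.9%) and 12.1% of 66 (5.38 to 22.5%). At this depth the intervals of replicates 1 and 3 contain the shares of all 3 Δ*TpKu70* libraries. That of replicate 2 ends where the lowest of them, the 17.9% of Δ*TpKu70* replicate 1, lies.

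The spread within Δ*TpKu70* was wide for all 3 genes. The highest library exceeded the lowest 10.3-fold for *TP00083*, 8.42-fold for *TP00084* and 5.03-fold for *TP00085*. The median of this ratio was 1.76 over the genes tested and 1.94 over the 1735 genes past the threshold and lower. A smaller ratio was found for 97.5%, 96.3% and 91.1% of the genes tested, in the same order. The order of the libraries, with replicate 1 lowest and replicate 3 highest, was shared by 21.6% of the genes tested and by 40.5% of those 1735, and replicate 1 was the lowest library for 65.7% of the latter. *TP05746* itself went the opposite way in these libraries, from 33.3 CPM in replicate 1 to 12.5 and 9.15 CPM in replicates 2 and 3. With 3 libraries this is a description, and the part of the library that stands apart in the levels of the 3 genes was not tested. Left out, Δ*TpKu70* replicate 1 gave log2FC values further from 0, down to the −11.28 of *TP00083*.

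The genes on either side by number were compared next, 10 below and 10 above. Numbers need not equal positions on a chromosome, and no coordinates of this strain were used here. Of the 20 numbers, *TP00073* and *TP00093* are not analysed here, and 6 genes (*TP00074*, *TP00075*, *TP00079*, *TP00080*, *TP00082* and *TP00091*) did not reach an FPKM of 1 in 3 libraries. Of the 12 tested, 5 were lower in Δ*TP05746*, 2 were higher and 5 did not pass the threshold, against backgrounds of 20.4% lower and 18.0% higher. Their median log2FC was −0.88, and that of all genes tested was 0.027. Scaled by library totals alone, the median of all genes was 0.811.

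*TP00086*, the next number after *TP00085*, was lower as well, by less than the 3 genes. Per length it had 5.19, 14.79 and 31.43 FPKM in Δ*TpKu70* replicates 1, 2 and 3, below *TP00085* in each. Its best match was a hypothetical protein of *Byssochlamys spectabilis*. Δ*TpKu70* replicates 1, 2 and 3 held 14, 40 and 83 of its counts and the Δ*TP05746* replicates 5, 2 and 3, with no overlap between the strains. It fell from 14.2 ± 12.0 to 0.609 ± 0.297 CPM (SD, n = 3), at a log2FC of −3.79 (standard error (SE) 0.736, edgeR adjusted p = 0.0068), and remained past the threshold with any 1 library left out. Within Δ*TpKu70* its highest library was 7.86-fold above its lowest, in the same order of libraries as *TP00083* and *TP00084*. The next gene, *TP00087*, had 71.1 ± 7.95 CPM in Δ*TpKu70* and 123 ± 17.0 CPM in Δ*TP05746* and a log2FC of 0.79, under the fold minimum, and *TP00088* had 20.7 ± 2.28 and 19.8 ± 3.09 CPM. Among the numbers above *TP00085*, the run of lower genes thus ended with *TP00086*.

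On the other side, the number before *TP00083* had few counts. *TP00082* was at 0 in all Δ*TpKu70* libraries and had 0.22, 0 and 22 counts in Δ*TP05746* replicates 1, 2 and 3, with decimals. *TP00081*, which had 8.41 ± 3.23 CPM in Δ*TpKu70* and 4.68 ± 1.78 CPM in Δ*TP05746*, stayed short of the threshold (log2FC −0.78, edgeR adjusted p = 0.18). It passed when Δ*TpKu70* replicate 1 was left out, at −1.07 (edgeR adjusted p = 0.0484). Further down, 3 consecutive numbers were lower. *TP00076*, annotated as a salicylate hydroxylase, an enzyme class that turns salicylate into catechol, had 51.5, 658 and 682 CPM in Δ*TpKu70* replicates 1, 2 and 3 and 13.1, 12.8 and 14.0 CPM in Δ*TP05746*. Replicate 1 lay far below the other Δ*TpKu70* libraries here too, but above the mutant, and the log2FC was −5.08 (SE 0.945, edgeR adjusted p = 0.00581). *TP00077* and *TP00078*, both hypothetical proteins, had log2FC values of −2.43 and −1.54 (edgeR adjusted p = 0.00666 and 0.0193). *TP00078* no longer passed when Δ*TpKu70* replicate 2 or any single Δ*TP05746* library was left out, with edgeR adjusted p up to 0.0723, and over all alternatives its adjusted p ran from 0.000577 to 0.13.

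The remaining flanking genes past the threshold lay further above. *TP00089*, annotated as an acetyl-CoA C-acetyltransferase, an enzyme that joins acetyl-CoA units or splits acetoacetyl-CoA, fell from 645 ± 99.8 to 99.7 ± 9.38 CPM (SD, n = 3), a log2FC of −2.69 (SE 0.225, edgeR adjusted p = 0.000402). Unlike the 3 genes it varied little within Δ*TpKu70*, at 534, 727 and 675 CPM. *TP00095*, annotated as a ubiquitin-conjugating enzyme, rose from 22.2 ± 1.66 to 65.4 ± 18.2 CPM (log2FC 1.54, edgeR adjusted p = 0.00318). *TP00094*, a conserved hypothetical protein, was higher by 1.13 on the log2 scale (edgeR adjusted p = 0.0309). It no longer passed when Δ*TpKu70* replicate 2 or 3 or any single Δ*TP05746* library was left out, with edgeR adjusted p up to 0.0974 and from 0.00343 to 0.367 over all alternatives. *TP00090* had a log2FC of 0.28. *TP00092*, the other gene of the stretch with zinc cluster marks, whose best match was a putative NADH dehydrogenase of *Eutypa lata*, had 7.46 ± 2.80 CPM in Δ*TpKu70* and 3.60 ± 0.671 CPM in Δ*TP05746* and stayed short of the threshold (log2FC −0.97, edgeR adjusted p = 0.0603).

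**Figure D3:**
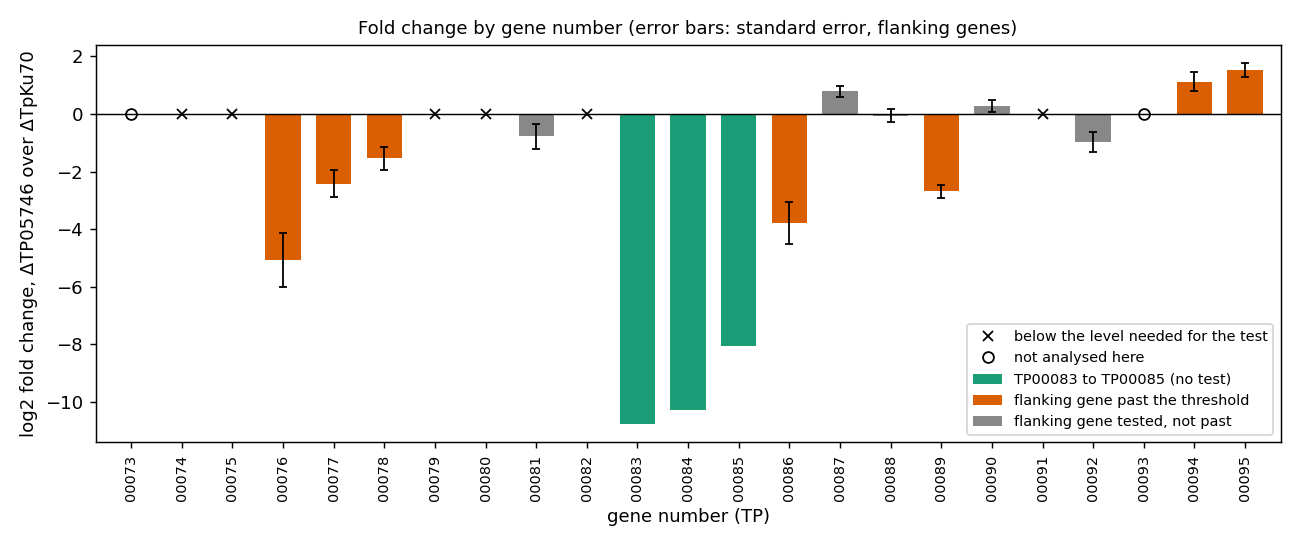
Log2FC of Δ*TP05746* over Δ*TpKu70* by gene number from *TP00073* to *TP00095*, with standard errors for the flanking genes. The 3 genes (green) and *TP00086* stand between *TP00082*, below the level needed for the test, and *TP00087*, at 0.79; crosses mark genes below that level and open circles the numbers that are not analysed here.

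The profile over the 6 libraries that was most like that of each gene was sought among all genes tested, as the root mean square difference of log2(CPM + 1) after subtracting each gene's mean. Both strains enter this measure, so nearness to genes with a fall of similar size follows in part from the strain difference on which the 3 genes were chosen. *TP00083* and *TP00084* were nearest to each other, at 0.19 on the log2 scale. After them came *TP06820* and *TP06821*, themselves consecutive by number, at 0.45 and 0.46 from *TP00083* and 0.43 and 0.39 from *TP00084*. *TP06820* had 7451, 17807 and 27855 CPM in Δ*TpKu70* replicates 1, 2 and 3 and 17.9, 7.0 and 14.1 CPM in Δ*TP05746*. The counts of *TP06821* have decimals, and no annotation of either gene was used here.

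*TP00085* was nearest to other genes than its neighbours. *TP12343*, *TP12216* and *TP07754* differed from it by 0.12, 0.18 and 0.25, and *TP00084* and *TP00083* by 1.57 and 1.68, which placed them 287th and 328th. *TP12343* was counted 212, 726 and 916 times in Δ*TpKu70* replicates 1, 2 and 3 and 2, 2 and 1 times in Δ*TP05746*. On this scale a gene near 0 in the mutant cannot fall as far as one with a higher parental level. With an offset of 0.1 CPM in place of 1, *TP00084* and *TP00085* were each the second nearest gene of the other, at 0.48, and *TP00083* and *TP00084* were no longer nearest to each other. *TP06820* was then the nearest gene of both, at 0.52 and 0.43, with *TP00084* second for *TP00083*, at 0.57, and *TP00083* not among the 3 nearest of *TP00084*. With this offset, *TP12343*, *TP12216* and *TP07754* were not among the 3 nearest of *TP00085*. Nor were they on log2(FPKM + 1), so the nearest genes of *TP00085* depend on the scale.

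**Figure D4:**
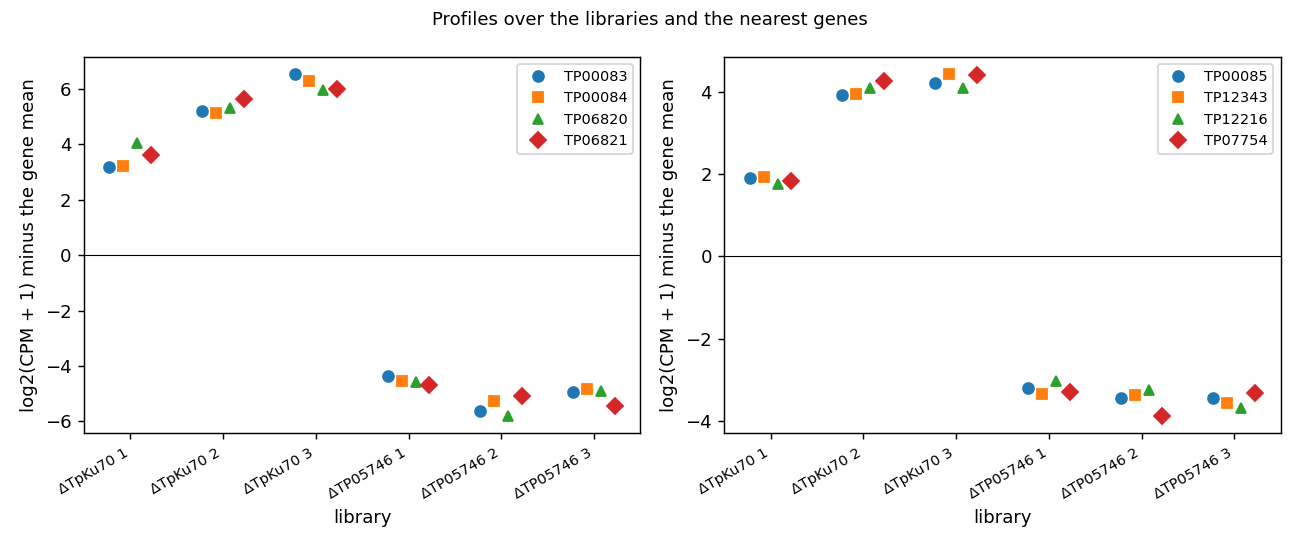
Log2(CPM + 1) minus the gene's mean over the 6 libraries, 1 point per gene and library, for *TP00083* and *TP00084* with *TP06820* and *TP06821* (left) and for *TP00085* with *TP12343*, *TP12216* and *TP07754* (right). The points of *TP00083* and *TP00084* differ by a root mean square of 0.19 and those of *TP00085* and *TP12343* by 0.12.

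*TP00083* and *TP00085* were then set beside the other genes that the annotation marks as putative transcription factors, in the part of it at hand. That part holds 1998 genes, 169 of them marked. The paper reports more marked genes than these, so ranks and counts cover the part at hand only. The study drew that annotation up for genes it called different on these libraries, so directions and counts in it are no independent evidence. Of 150 marked genes with a row in the files, *TP00083* had the highest mean FPKM in Δ*TpKu70*, at 1682 ± 1438 (SD, n = 3), with *TP02877* next at 889.6 and a median of 8.81. The rank was the first without any single Δ*TpKu70* library, but the mean was 903 without replicate 3, against 872 for *TP02877*. In replicate 1 alone, *TP00083* ranked 3rd, at 406.73 against 1006. *TP00085* was 27th by mean FPKM, at 39.9 ± 22.3, and 59th, 24th and 21st in replicates 1, 2 and 3. Among the 131 marked genes that were tested, *TP00083* and *TP00085* had the lowest and the second lowest log2FC. Both were chosen on these values. The place of *TP00085* rests on 1 mutant count and a log2FC from −11.04 to −5.10 over the alternatives. Ranks were not taken under them.

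The other genes with the winged helix mark differed in direction. Of 12, 11 were listed and 10 tested, and 7 were higher in Δ*TP05746*, 1 was lower and 2 did not pass the threshold, with a median log2FC of 1.75. Over all genes tested 18.0% were higher and 20.4% lower, with a median of 0.027, but the list holds only genes that the study had called different, so the shares are not comparable. The lower gene, *TP05202*, is annotated as a methionine aminopeptidase, which removes the first methionine of new proteins, and fell from 596 ± 129 to 133 ± 4.58 CPM (log2FC −2.16, SE 0.238, edgeR adjusted p = 0.000968). The largest increases were those of *TP03303*, a hypothetical protein that went from 1.79 ± 0.420 to 46.3 ± 5.40 CPM (log2FC 4.38, edgeR adjusted p = 0.000193), and of *TP04171*, annotated as an O-methyltransferase (log2FC 2.67, edgeR adjusted p = 0.0018). The genes with this mark thus include annotated enzymes. The number of higher genes was 4 when Δ*TpKu70* replicate 2 or 3 or any single Δ*TP05746* library was left out.

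Genes marked like *TP00085*, with the N-terminal zinc cluster domain and no other, numbered 42, of which 40 were listed and 33 tested. Of these, 20 were lower in Δ*TP05746*, 6 were higher and 7 did not pass the threshold, with a median log2FC of −1.19, beside the same 20.4%, 18.0% and 0.027 over all genes tested and with the same limit. The deleted *TP05746* is one of the 20. *TP02088*, annotated as a putative C6 transcription factor, fell from 662 ± 265 to 21.6 ± 4.98 CPM (log2FC −4.91, SE 0.425, edgeR adjusted p = 0.000436). *TP05236*, a conserved hypothetical protein, rose from 2.66 ± 2.04 to 47.7 ± 8.76 CPM (log2FC 3.92, edgeR adjusted p = 0.00149). *TP02049* was at 0 in all Δ*TpKu70* libraries and had 104.69, 186.4 and 128.88 counts in Δ*TP05746*, with reads shared with another gene model, so its level is uncertain. Lower genes of this list numbered 9 with library totals or with limma on log2(FPKM + 1), and higher ones 3 without Δ*TP05746* replicate 1 or 3.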

How the data were processed

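Total RNA of mycelium was sequenced by Illumina from 3 libraries per strain. The authors' deposited expected counts are RSEM estimates, not scaled, and their FPKM values come from the same tool. RSEM 1.2.12, DESeq2, Bowtie2 2.1.0 and BWA 0.7.10-r789 are named in the submitters' processing notes, and the methods give strain 1-95 as the genome. The tables list no gene at 0, so a gene with a row in some libraries was read as 0 in the others, where a row missing for another reason cannot be told from a 0. Such rows may exist. Of 169 genes at hand that are marked as putative transcription factors and that the study called different, 150 had a row in any library. Genes with no row in any library, among them *TP00073* and *TP00093*, are not analysed here. Expected counts were rounded, and the 8522 genes that reached 1 FPKM in 3 or more libraries were tested with edgeR 4.0.16 (quasi-likelihood, TMM, prior count 2, two-sided, Benjamini-Hochberg over all genes tested) in R 4.3.3. The test and the alternatives (limma 3.58.1, DESeq2 1.42.0) were also run on simulated data. Few genes were changed in it, so it cannot check the scaling where many genes differ, as they do here. The standard error was taken as the size of the log2 fold change over the square root of F. Summaries used Python 3.11.15, matplotlib 3.10.9, SciPy 1.17.1 and pandas 2.3.3.

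The members and lists were chosen with earlier results of these data known. Named genes are the 3 genes, *TP05746*, the 20 flanking numbers, the 3 nearest profiles per gene, and the 2 genes with the largest change past the threshold per list and direction. *TP02877* was named, and its levels with each Δ*TpKu70* library left out were compared, after the data were seen. The lists come from 1998 annotated genes at hand. No gene ID matched the reference table of another strain, so no sequence or coordinate is given. Reads carried no molecular identifiers, so intervals cover counting error only.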

Additional observations from a re-analysis of the deposited data

How the results depend on the processing

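The log2 fold changes of *TP00083* and *TP00084* moved by less than the spread between Δ*TpKu70* libraries under all 15 alternatives, from −11.28 to −9.13 and from −10.77 to −9.01. That of *TP00085*, with 1 count in the mutant, was −11.04 with DESeq2, −5.10 with limma on log2(FPKM + 1) and −10.57 with a smaller prior count. As ratios of counts, *TP00084* to *TP00083* was 4.17 in place of 3.73 and *TP00085* to *TP00083* 0.049 in place of 0.0292. With an offset of 0.1 CPM, 3 of the 9 nearest genes were shared, and with log2(FPKM + 1) 6 were. None of those shared was a nearest gene of *TP00085*.

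Genes higher and lower numbered 1534 and 1735, 3253 and 1053 with library totals, 3123 and 1069 with limma on log2(FPKM + 1), 3232 and 1107 on log2(FPKM + 0.1), and 741 and 1136 against the fold minimum. Higher flanking genes numbered 4 with library totals and with log2(FPKM + 0.1), 1 against the fold minimum and 1 to 2 with a library left out. Against the fold minimum 3 winged helix and 3 zinc cluster genes were higher. With a library left out, higher winged helix genes numbered 4 to 7 and higher zinc cluster genes 3 to 6. Lower zinc cluster genes numbered 9 with library totals and with log2(FPKM + 1), and 11 with log2(FPKM + 0.1). *TP00081* turned to 0.03 with library totals. *TP00088* turned to 0.74 with library totals, 0.63 and 0.64 with log2(FPKM + 1) and log2(FPKM + 0.1), and lay between −0.14 and 0.06 with a library left out, at 0.06 without Δ*TP05746* replicate 2. The causes were not tested.

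Replicate numbers did not pair the libraries (correlations of deviations −0.0784, −0.0379 and 0.0115). With the replicate block 1375 genes were higher and 1509 lower, 1 flanking gene was higher, 3 zinc cluster genes were higher, and *TP00094* was at 1.21 (adjusted p = 0.0612).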
